A study of Mus musculus with 6 samples.

Results

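Motile cilia are the beating hairs of multiciliated cells. In the brain they cover the ependyma, the cell layer that lines the ventricles, where their beat moves cerebrospinal fluid. The epithelium of the choroid plexus is multiciliated too. Each cilium is built around a skeleton of microtubules, the axoneme: dynein arms on the outer doublet microtubules drive the beat, radial spokes and a central pair of microtubules regulate it, and the nexin-dynein regulatory complex ties neighbouring doublets together. The programme is switched on by the transcription factor Foxj1 together with factors of the RFX family, which bind DNA motifs called X-boxes. Most other cells, neurons included, carry a single immotile primary cilium that lacks dynein arms, spokes and the central pair.

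The genes described here were chosen by name: every probe set annotated to exactly 1 gene symbol that starts with Dnah, Dnai, Dnal, Cfap, Rsph, Drc or Tekt, or that is Foxj1, Tmem212, Dynlrb2, Spag6, Spag17, Hydin, Ccdc39 or Ccdc40. This gave 95 probe sets for 61 of the 18193 genes that the annotation names. They were measured in medial prefrontal cortex of 129S1/SvImJ mice, an inbred strain, with no mutation or transgene named in the labels. All were males of 8 to 10 weeks that had gone through fear extinction training, and both hemispheres were dissected 2 h later. The control group was 3 mice on the control diet (mice 1, 5 and 9), and the other group was 3 mice on a zinc diet labelled ZnR (mice 3, 7 and 11), whose composition the sources used here do not give. RNA of each mouse was read on 1 Affymetrix Mouse430_2 array, with values as log2 expression, so that 1 unit is a doubling. The series title speaks of HDAC inhibition, dopamine and lasting inhibition of fear. The arrays are bulk tissue, in which fewer cells of a type and less RNA per cell cannot be told apart, and 3 arrays a group limit the precision of every value.

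A probe set was kept for comparison where its log2 value was above 4 on at least 3 of the 6 arrays. This floor was passed by 42 of the 95 motile cilia probe sets, which stand for 33 genes. The other 53 were below it, and 28 genes had no probe set above it. The difference between ZnR and control in earlier results of these same arrays was known when the genes were chosen. Their differences between diets are therefore given as a description, no p-value of a single gene is printed, and the number past the threshold is given beside the share over all probe sets with nothing read from it.

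Of the 42 kept probe sets, 6 passed an adjusted p of 0.05 as higher in ZnR, in limma with Benjamini-Hochberg adjustment over all 25381 kept probe sets, and 0 passed as lower. Of all kept probe sets, 0.461% passed as higher and 1.01% as lower, 1.47% together. The 6 that rose were in Tmem212, Dnaic2, Cfap126, Dnali1, Cfap206 and Dnah6, and the other 36 did not pass. At an unadjusted p of 0.05 in limma, 21 were higher and 0 lower, against 9.06% and 7.9% of all kept probe sets. On average 36 of the 42 were higher in ZnR and 6 were lower, with a median difference of 0.25 log2 units, against 0.02 over all kept probe sets. With 1 probe set a gene, 29 of the 33 kept genes (87.9%) were higher on average, beside 57.6% of all genes. The 3 ZnR mice all lay above the 3 control mice in 21 probe sets, or 50% of those kept, beside 13.1% of all kept probe sets. They all lay below in 1, beside 10.6%. ZnR means were 2-fold higher or more in 4, those of Dynlrb2, Tmem212, Dnaic2 and Foxj1, beside 0.177% of all kept probe sets.

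The calls rested on all 6 mice. With control mouse 1 left out, only Tmem212 of the 42 was past the threshold. With control mouse 5, control mouse 9, ZnR mouse 3, ZnR mouse 7 or ZnR mouse 11 left out, 0 were past it, while 18 to 22 were higher at an unadjusted p of 0.05 in limma over these 6 fits, beside 6.70% to 8.98% of all kept probe sets in the same fits. Over all kept probe sets the number past the threshold was 373 with every mouse and 1 to 109 with a mouse left out.

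**Figure D1:**
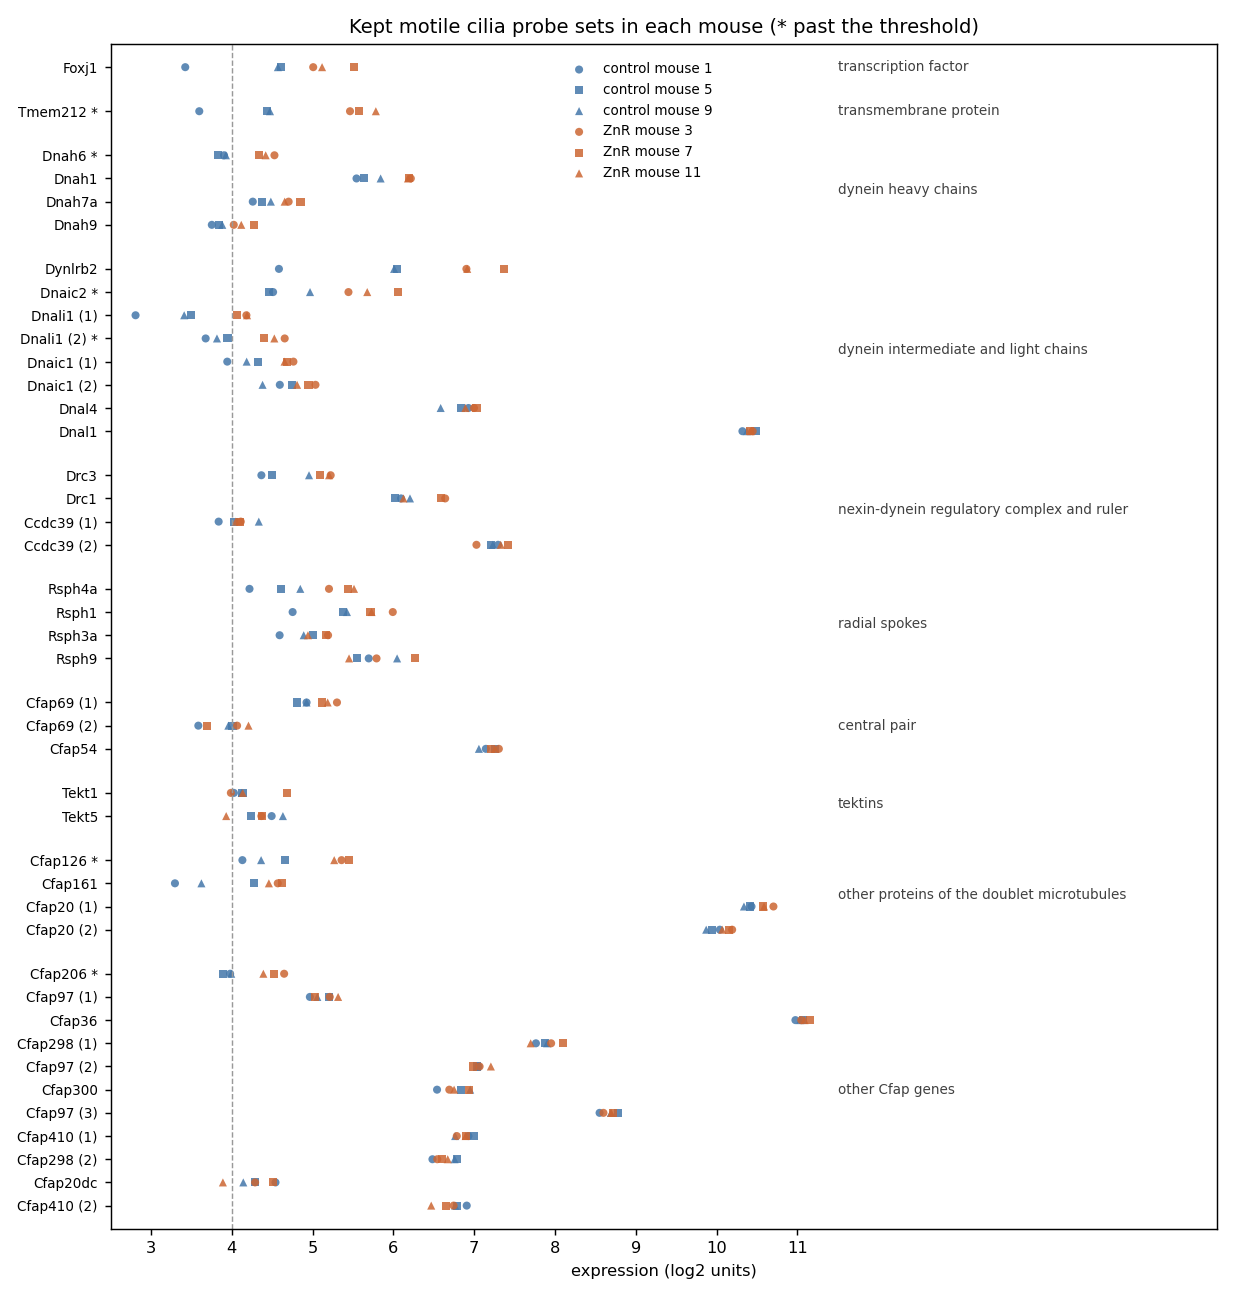
Log2 expression (x axis, log2 units) of the 42 kept motile cilia probe sets (y axis, grouped by role) in each of the 6 mice, 1 point a mouse, with control mice in blue and ZnR mice in orange; the dashed line is the floor of 4 log2 units and numbers in brackets tell probe sets of 1 gene apart. In 21 probe sets all orange points lie to the right of all blue points, and control mouse 1 is the lowest control in 25.

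The letters before the gene starts are shown first, because motile cilia genes share X-boxes there. RefSeq windows on build GRCm38.p6, from 250 bases before to 50 bases after each gene start, were at hand for 52 of the 61 genes. The genes without one were Cfap157, Cfap299, Cfap53, Cfap54, Cfap65, Cfap97, Foxj1, Rsph1 and Rsph4a. In each sequence, printed 5′ to 3′ on the gene's strand and ending at the base before the gene start, capitals mark letters that match an X-box motif. The first 6 belong to dynein genes and hold a mirrored 13-base form, GTTNC and GNAAC with 3 bases between them. This form was added to the search after the windows of Dynlrb2 and Dnah6 had been seen.

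Dynlrb2, chr8:116504895-116505014, plus strand: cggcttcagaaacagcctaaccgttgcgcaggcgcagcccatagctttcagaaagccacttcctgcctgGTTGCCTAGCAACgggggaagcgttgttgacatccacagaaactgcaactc
Dnaic2, chr11:114727299-114727418, plus strand: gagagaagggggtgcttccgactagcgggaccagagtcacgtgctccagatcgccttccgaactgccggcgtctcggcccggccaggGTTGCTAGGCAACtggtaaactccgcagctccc
Dnah6, chr6:73221632-73221751, minus strand: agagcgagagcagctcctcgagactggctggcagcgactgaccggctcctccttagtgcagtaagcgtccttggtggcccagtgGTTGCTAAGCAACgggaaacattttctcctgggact
Dnaic1, chr4:41569674-41569793, plus strand: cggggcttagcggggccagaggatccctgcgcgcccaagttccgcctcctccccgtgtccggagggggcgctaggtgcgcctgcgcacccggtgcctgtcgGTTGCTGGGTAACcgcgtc
Dnah7a, chr1:53706785-53706904, minus strand: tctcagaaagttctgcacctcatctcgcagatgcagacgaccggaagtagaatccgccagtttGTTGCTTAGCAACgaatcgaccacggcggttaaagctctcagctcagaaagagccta
Dnah9, chr11:66168552-66168671, minus strand: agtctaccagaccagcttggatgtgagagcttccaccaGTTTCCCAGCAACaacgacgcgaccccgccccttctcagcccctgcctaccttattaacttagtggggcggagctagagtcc

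The next sequences are shown for contrast. Cfap161, which codes for a protein inside the doublet microtubules, had 3 copies of the letters GTTGCCA, all on the opposite strand and therefore printed as TGGCAAC, whereas only 6 of the 32851 windows in the table held 3 or more copies. Cfap298, whose product helps to assemble dynein arms, had a mirrored pair, GTTNCC and GGNAAC with 2 bases between them, far from its start and 1 copy of GTTGCCA nearer to it, and its values hardly differed between diets. Tmem212, which had the highest difference among the motile cilia probe sets past the threshold, had no X-box letters in its window. The same was true of Cfap126, Dnali1 and Cfap206, which were also past the threshold.

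Cfap161, chr7:83794840-83794959, minus strand: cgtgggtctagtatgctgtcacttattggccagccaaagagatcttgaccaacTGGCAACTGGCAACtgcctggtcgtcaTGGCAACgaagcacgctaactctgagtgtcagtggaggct
Cfap298, chr16:90934850-90935049, minus strand: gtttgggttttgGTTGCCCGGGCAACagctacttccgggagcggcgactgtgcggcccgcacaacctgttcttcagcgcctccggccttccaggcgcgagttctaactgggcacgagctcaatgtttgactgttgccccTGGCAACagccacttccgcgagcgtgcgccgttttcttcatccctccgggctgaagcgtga
Tmem212, chr3:27896369-27896488, minus strand: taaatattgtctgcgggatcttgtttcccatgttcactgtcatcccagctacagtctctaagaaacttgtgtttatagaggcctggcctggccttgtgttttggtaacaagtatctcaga

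Motifs were searched on both strands, and shares count a gene once. GTTGCCA was found in 7 of the 52 motile cilia genes with a window (13.5%), beside 5.02% of all 27025 genes. The pair of GTTNCC and GGNAAC was found in 2 (3.85%), beside 0.529%. Of the forkhead motifs, TGTTTAC was found in 4 (7.69%), beside 4.05%, and TGTTTGT in 1 (1.92%), beside 7.60%. CCAAT, a general promoter motif, was found in 22 (42.3%), beside 41.1%. The 13-base form was added after the windows of Dynlrb2 and Dnah6 had been seen. It was found in 9 genes (17.3%), beside 1.12% of all genes, and in 7 of 50 (14%) once Dynlrb2 and Dnah6 were set aside. A 14-base form, GTTNC and GNAAC with 4 bases between them, was added at the same time and covers every match of the pair. It was found in 7 genes (13.5%), beside 1.19%. These are matches of letters in these windows and not measured binding.

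The 13-base form lay close to the gene start, with its first base between 82 bases before the start and 2 bases before it. Kept genes with it were Dynlrb2, Dnaic2, Drc3, Dnah6, Dnah7a, Dnaic1 and Dnah9. All 7 were higher in every ZnR mouse than in any control mouse, with differences of 0.31 to 1.52 and a median of 0.54. Of the 21 kept genes whose windows lacked it, 8 had no overlap, beside 16.5% of all genes, and the median difference was 0.19. For Dnah6 and Dnah9 among the 7, and for Cfap206 and Dnali1 among the 8, no control mouse was above the floor, so that the separation of the diets follows from the floor. Without these genes the counts were 5 of 5 and 6 of 19. Dynlrb2, whose window had been seen before the form was added, was still counted among the 5. Mean log2 signals ran from 3.98 to 6.30 in the genes with the 13-base form and from 4.14 to 11.1 in those without it. Tekt2 and Tekt4 also had the 13-base form but were below the floor. For GTTGCCA, a motif fixed beforehand, the split ran the other way. Of the 6 kept genes with it, 2 had no overlap, with a median difference of 0.20. Of the 22 whose windows lacked it, 13 had no overlap, with a median of 0.34. Dnah6, Dnah9, Cfap206 and Dnali1 were among the 13. Cfap298 and Cfap20dc, the kept genes with the pair of GTTNCC and GGNAAC, overlapped, with differences of 0.07 and -0.10. Since the 13-base form was added with the windows in view and the genes were chosen on this contrast, these splits are descriptions.

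**Figure D2:**
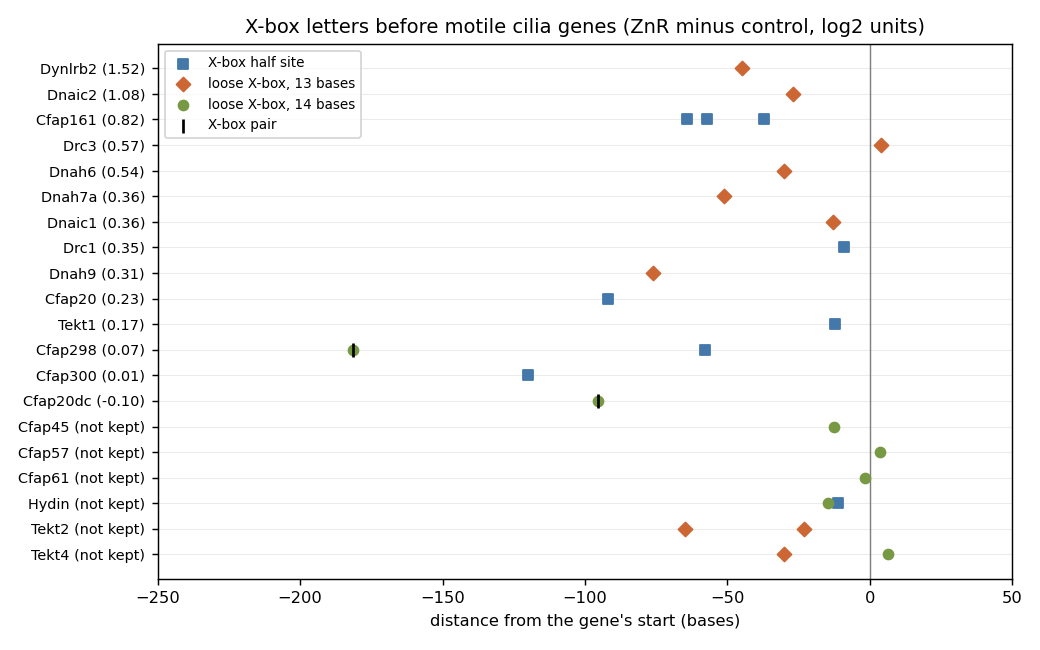
Centre of each X-box match in the windows of motile cilia genes, as distance from the gene start in bases (x axis), for genes ordered by their ZnR minus control difference in log2 units (in brackets, y axis) with genes below the floor last; blue squares are the 7 letters GTTGCCA, black bars the mirrored pair, and diamonds and circles the 13-base and 14-base forms. All 7 kept genes with the 13-base form (orange diamonds) have it within 82 bases of the start or across it.

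Foxj1 and Tmem212 come first among the values, as a regulator and a marker of multiciliated cells. Counts by role below stand beside the shares over all kept probe sets. These were 0.461% past the threshold as higher and 13.1% higher without overlap. Values are given for control mice 1, 5 and 9 and then for ZnR mice 3, 7 and 11, in log2 units, and each difference is ZnR minus control ± its moderated standard error from limma, with n = 3 a group. Foxj1, the forkhead factor that drives the motile cilium programme, measured 3.42, 4.61 and 4.57 in control mice and 5.01, 5.51 and 5.12 in ZnR mice. All ZnR mice were above all control mice, but control mouse 1 lay below the floor and well under the other controls. The difference was 1.01 ± 0.31, a 2.01-fold difference that did not pass the threshold. It was 1.58 between control mouse 1 and ZnR mouse 3 and 0.72 between the other mice. Tmem212, which codes for a transmembrane protein used as a marker of ependymal cells, measured 3.60, 4.44 and 4.47 in control mice and 5.46, 5.58 and 5.78 in ZnR mice. The groups were about 1 unit apart at their closest, and Tmem212 rose by 1.44 ± 0.23, or 2.71-fold.

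Dynein heavy chains are the motors of the arms. The array carried 14 probe sets for 10 of them, and 4 were kept, for Dnah1, Dnah6, Dnah7a and Dnah9. Their differences ran from 0.31 to 0.54, and every ZnR mouse was above every control mouse. For Dnah6 and Dnah9 this follows from the floor, since they were kept only through the ZnR mice. Of the 10 probe sets below the floor, those of Dnah11 and Dnah12 and one of Dnah2 were higher in ZnR without overlap, one of Dnah8 was lower without overlap, and the other 6 overlapped. Dnah6, an inner arm heavy chain, measured 3.90, 3.83 and 3.93 in control mice and 4.53, 4.34 and 4.42 in ZnR mice. It rose by 0.54 ± 0.09, with every control value just below the floor and every ZnR value just above it. Dnah1, another inner arm heavy chain, measured 5.54, 5.64 and 5.84 in control mice and 6.22, 6.20 and 6.18 in ZnR mice. Its ZnR mice were nearly identical, and the difference of 0.52 ± 0.10 did not pass, although it was past the threshold in some alternatives, such as renewed quantile normalization and arrays centred on their medians. Dnah7a, also of the inner arms, measured 4.26, 4.37 and 4.48 in control mice and 4.70, 4.85 and 4.65 in ZnR mice. Dnah9, an outer arm heavy chain, measured 3.75, 3.84 and 3.88 in control mice and 4.02, 4.27 and 4.12 in ZnR mice. In both the groups were separate by a narrow gap, and neither passed. Dnah5, the partner of Dnah9 in the outer arm, stayed between 3.43 and 3.79 in all 6 mice and was not tested.

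Intermediate and light chains hold the arms together and dock them on the doublets. Of 11 probe sets for 6 genes, 8 were kept, 2 rose and 6 did not pass. Dnaic2, an outer arm intermediate chain, measured 4.51, 4.46 and 4.97 in control mice and 5.44, 6.06 and 5.68 in ZnR mice. It rose by 1.08 ± 0.19, or 2.12-fold, with all mice above the floor and no overlap. That probe set is of a kind, marked by x in its name, that may also bind other transcripts, and another Dnaic2 probe set lay below the floor on every array with a difference of -0.07. Dnali1, a light intermediate chain of the inner arms, was read by 2 kept probe sets. One measured 3.68, 3.95 and 3.82 in control mice and 4.65, 4.40 and 4.53 in ZnR mice, and rose by 0.71 ± 0.11. The other measured 2.81, 3.50 and 3.41 in control mice and 4.18, 4.07 and 4.19 in ZnR mice, and its difference of 0.91 ± 0.18 did not pass. On both probe sets every control mouse lay below the floor and every ZnR mouse above it.

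Dynlrb2, a roadblock-type dynein light chain, had the highest difference of all kept motile cilia probe sets. It measured 4.58, 6.04 and 6.01 in control mice and 6.90, 7.37 and 6.91 in ZnR mice. The groups did not overlap, but control mouse 1 lay more than 1 unit under the other controls, and the difference of 1.52 ± 0.38, or 2.86-fold, did not pass. It was 2.32 between control mouse 1 and ZnR mouse 3 and 1.12 between the other mice. Dnaic1, the other outer arm intermediate chain, measured 3.94, 4.32 and 4.18 in control mice and 4.76, 4.69 and 4.65 in ZnR mice on one probe set. Its other probe set measured 4.59, 4.75 and 4.38 in control mice and 5.04, 4.95 and 4.81 in ZnR mice. Neither overlapped and neither passed, with differences of 0.55 ± 0.11 and 0.36 ± 0.12. The light chain genes Dnal1 and Dnal4 differed little: Dnal1, of the outer arm, lay between 10.3 and 10.5 in all 6 mice with a difference of 0.04 ± 0.08, and Dnal4 overlapped between groups with 0.19 ± 0.11.

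The nexin-dynein regulatory complex and the protein ruler that spaces it along the doublet gave 4 kept probe sets, none past the threshold. Drc3, a subunit of the complex, measured 4.37, 4.50 and 4.96 in control mice and 5.22, 5.09 and 5.20 in ZnR mice, a difference of 0.57 ± 0.15 without overlap. Drc1, the scaffold of the complex, measured 6.09, 6.02 and 6.21 in control mice and 6.64, 6.59 and 6.12 in ZnR mice. Here ZnR mouse 11 lay among the controls, and the difference was 0.35 ± 0.15. Ccdc39, which forms the ruler with Ccdc40, was read by 2 kept probe sets with differences of 0.02 ± 0.13 and 0.01 ± 0.11. Both overlapped between groups. Ccdc40 stayed below the floor, at 3.28 to 3.40 in control mice and 3.55 to 3.67 in ZnR mice.

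Radial spoke genes gave 4 kept probe sets, of which 0 passed and 2 did not overlap. Rsph4a, a protein of the spoke head, measured 4.22, 4.61 and 4.85 in control mice and 5.20, 5.44 and 5.51 in ZnR mice. Its difference was 0.83 ± 0.17. Rsph1, another spoke head protein, measured 4.75, 5.38 and 5.42 in control mice and 5.99, 5.72 and 5.73 in ZnR mice. The groups were separate, with control mouse 1 again the lowest, and the difference was 0.63 ± 0.19. Rsph3a, of the spoke stalk, overlapped with 0.27 ± 0.13. Rsph9, also of the spoke head, measured 5.69, 5.55 and 6.05 in control mice and 5.79, 6.26 and 5.45 in ZnR mice. Its lowest and highest values were both in ZnR mice, and its difference was 0.07 ± 0.22.

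Central pair genes were mostly below the floor. Of 11 probe sets for 6 genes, 3 were kept, for Cfap54 and Cfap69, and 0 passed. One Cfap69 probe set did not overlap, with a difference of 0.32 ± 0.09, and the other overlapped with 0.14 ± 0.17. Cfap54 lay between 7.06 and 7.31 in all 6 mice. Spag6, Spag17 and Hydin, which build projections of the central pair, had no kept probe set. One Spag17 probe set measured 1.92 to 2.40 in control mice and 2.57 to 2.79 in ZnR mice, and Spag6 measured 2.12 to 2.51 in control mice and 1.88 to 2.06 in ZnR mice. Their groups were separate in opposite directions, both far under the floor, where these values are not read as expression.

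Tektins are filament proteins of the doublet walls. Only Tekt1 and Tekt5 were kept, and both overlapped. Tekt1 measured 4.03, 4.13 and 4.12 in control mice and 3.99, 4.68 and 4.13 in ZnR mice, so that ZnR mouse 7 alone stood apart. Tekt5, known mainly from sperm tails, measured 4.49, 4.24 and 4.63 in control mice and 4.37, 4.37 and 3.93 in ZnR mice, and its difference of -0.23 ± 0.15 was the lowest of all kept motile cilia probe sets.

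Other proteins of the doublet microtubules gave 4 kept probe sets, all without overlap. Cfap126, also called Flattop, measured 4.13, 4.65 and 4.36 in control mice and 5.36, 5.45 and 5.27 in ZnR mice. It rose by 0.98 ± 0.14, or 1.97-fold, with every mouse above the floor. Cfap161 measured 3.30, 4.27 and 3.62 in control mice and 4.57, 4.62 and 4.46 in ZnR mice. The ZnR mice were close together and the controls spread, with control mouse 1 lowest, and the difference of 0.82 ± 0.22 did not pass. Cfap20, which is also used outside motile cilia, had 2 probe sets with high signal and small differences of 0.19 ± 0.09 and 0.23 ± 0.08.

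The remaining Cfap genes were mixed. Of 30 probe sets for 16 genes, 11 were kept, and 1 rose. That was Cfap206, a protein at the base of radial spokes, which measured 3.98, 3.90 and 3.99 in control mice and 4.65, 4.53 and 4.39 in ZnR mice. It rose by 0.57 ± 0.09, with every control mouse just below the floor. The other 10 probe sets, of Cfap36, Cfap97, Cfap298, Cfap300, Cfap410 and Cfap20dc, had differences between -0.20 and 0.11. Cfap36, which binds a small GTPase of cilia, lay between 10.98 and 11.16 in all 6 mice. One Cfap410 probe set had all ZnR mice below all controls, at 6.91, 6.79 and 6.76 in control mice and 6.75, 6.65 and 6.47 in ZnR mice, and the other overlapped.

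**Figure D3:**
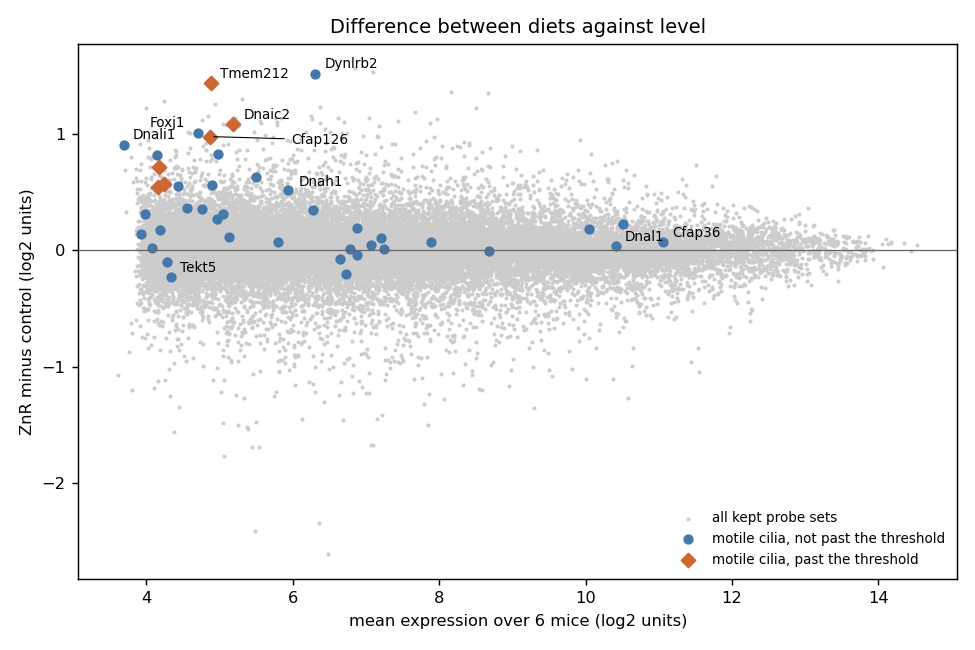
ZnR minus control difference (y axis, log2 units) against mean log2 expression over the 6 mice (x axis) for all 25381 kept probe sets (grey) and the 42 motile cilia probe sets (blue, or orange diamonds where past the threshold). The 6 past the threshold have mean log2 values of 4.16 to 5.19, and motile cilia probe sets of high signal lie near 0.

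The larger differences were on probe sets of low signal. Over all kept probe sets the median of the mean log2 values was 6.99. Of the 33 motile cilia probe sets below it, 6 were past the threshold and 19 did not overlap (57.6%, beside 11.4% of all kept probe sets below it), with a median difference of 0.36. Of the 9 at or above it, 0 were past the threshold and 2 did not overlap (22.2%, beside 14.7%), with a median of 0.07. The floor itself bears on this: in 5 kept probe sets, of Cfap206, Dnah6, Dnah9 and Dnali1 (2), no control mouse was above the floor, so that they were kept only through the ZnR mice, and 3 of the 6 that rose were among them. On 28 probe sets every mouse was above the floor. Of these 2 rose, in Dnaic2 and Cfap126, and 12 had no overlap, beside 13.1% of all probe sets above the floor in every mouse.

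The 53 probe sets below the floor were not tested. All 3 ZnR mice lay above all 3 controls in 15 of them (28.3%, beside 5.94% of all probe sets below the floor) and below them in 2 (beside 5.68%). Their median difference was 0.06, from -0.37 to 0.68. Just outside the floor were Cfap52, with 3.01, 3.98 and 3.54 in control mice and 3.91, 4.35 and 4.30 in ZnR mice, and the heavy chain gene Dnah2, with 3.24, 3.79 and 3.57 in control mice and 4.16, 3.96 and 4.33 in ZnR mice. Both had 2 mice above the floor where 3 were needed. Just inside it were Dnah9 and the lower Dnali1 probe set, given above.

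Many of the genes shared the order of the mice within a diet. Control mouse 1 was the lowest control in 25 of the 42 kept probe sets (59.5%, beside 41.3% of all kept probe sets) and the highest in 8. ZnR mouse 11 was the highest ZnR mouse in 7 (16.7%, beside 27.4%). Averaged over the 42 probe sets, each centred on its mean over the 6 mice, control mice 1, 5 and 9 stood at -0.33, -0.11 and -0.11 and ZnR mice 3, 7 and 11 at 0.18, 0.24 and 0.13. Control mouse 1 thus stood apart from the other controls, while the ZnR mice were alike. Control mouse 1 and ZnR mouse 3 were also the arrays of low 18S ribosomal RNA signal, at 9.09 and 8.44 against 10.9 to 12.4 on the others. The median difference over the members was 0.33 between these 2 mice and 0.25 between the other 4. Without both, 0 of the 42 were past the threshold, with 18 higher at an unadjusted p of 0.05 in limma, beside 5.67% of all kept probe sets. Over all kept probe sets 1 was past the threshold.

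**Figure D4:**
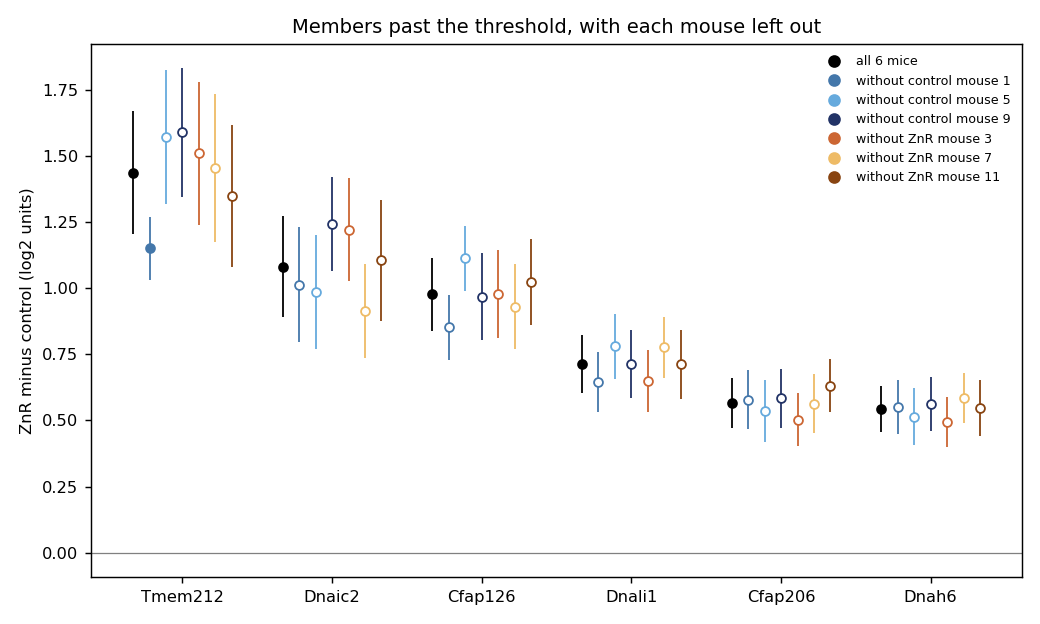
ZnR minus control difference (y axis, log2 units) with its moderated standard error for the 6 motile cilia probe sets past the threshold, with all 6 mice (black) and with each mouse left out in turn (colours); filled points are past the adjusted threshold and open points are not. Every difference stays above 0, from 0.49 to 1.59 with a mouse left out, and only Tmem212 without control mouse 1 keeps a filled point.

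Genes of motile cilia whose names fall outside the naming rule were listed separately: arm docking and assembly factors, inner proteins of the doublets, spoke and central pair proteins and others marked by multiciliated cells. Of 78 such genes, 73 were on the array and 39 were kept, with 1 probe set a gene. Past the threshold as higher were 4, and 0 were lower, beside 0.655% and 1.27% of the 11749 genes kept. The 4 were Tppp3, Mns1, Pifo and Iqca. The list's median difference was 0.37, against 0.03 over all genes and 0.32 over the 33 kept genes of the naming rule. In 26 the groups did not overlap with ZnR higher, beside 16.5% of all genes. At an unadjusted p of 0.05 in limma, 23 were higher and 2 lower, beside 11.4% and 7.31% of all genes. The 2 were Ccdc65, at -0.26 ± 0.09, and Lrrc6, at -0.26 ± 0.10, both with every ZnR mouse below every control mouse. With any 1 mouse left out, or without the low-18S pair, 0 of the list were past the threshold, and 20 to 23 were higher at an unadjusted p of 0.05 in limma.

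Tppp3, a microtubule-bundling protein of multiciliated cells, measured 8.08, 8.31 and 8.27 in control mice and 8.94, 8.74 and 9.09 in ZnR mice and rose by 0.70 ± 0.12. Iqca, now Iqca1, an AAA protein of the regulatory complex, measured 4.58, 4.57 and 4.59 in control mice and 4.99, 4.99 and 4.99 in ZnR mice. Each diet had nearly the same value in its 3 mice, and Iqca rose by 0.41 ± 0.07. Mns1, an inner protein of the doublets, rose by 0.62 ± 0.11, and Pifo, a ciliary protein, by 0.86 ± 0.15. The highest difference of the list was in Fam183b, at 3.78, 4.95 and 5.22 in control mice and 5.93, 6.22 and 5.71 in ZnR mice, which was 1.30 ± 0.35 and did not pass.

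Regulators of multiciliated cell formation other than Foxj1 gave 9 kept genes, of which 0 passed and 2 were higher at an unadjusted p of 0.05 in limma, beside 11.4% of all genes. Their median difference was 0.19. On average 8 were higher (88.9%, beside 57.6% of all genes) and 1 was lower. In 3 the groups did not overlap with ZnR higher, beside 16.5% of all genes. Myb, a factor of early multiciliated cells, measured 3.45, 4.27 and 4.06 in control mice and 4.32, 4.55 and 4.66 in ZnR mice, a difference of 0.59 ± 0.21. Rfx3, an X-box factor that neurons also express, overlapped at -0.09 ± 0.11. Trp73 and Ccno, further regulators, were below the floor in all mice, at no more than 3.33 and 3.74.

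Primary cilium genes, many of which multiciliated cells share with neurons, had a smaller median difference than the motile cilia genes. Of 44 kept genes, 0 passed as higher and 1 as lower, beside 0.655% and 1.27% of all genes. The median difference was 0.10, and 10 were higher without overlap, beside 16.5% of all genes. On average 35 (79.5%) were higher, beside 57.6% of all genes and 87.9% of the motile cilia genes. The lists were not matched for signal, and motile cilia probe sets at or above the median level had a median difference of 0.07. The gene that fell, called with control mouse 1 left out but not with any other mouse left out, was Sstr3, a somatostatin receptor of neuronal primary cilia, at 6.48, 6.69 and 6.74 in control mice and 5.70, 5.73 and 5.98 in ZnR mice, a difference of -0.83 ± 0.11. Of the transport and membrane gate genes, Tctn2 had the highest value, 0.39 ± 0.09, which did not pass.

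Markers of ependyma that are not part of the cilium were checked against the label of these genes. Of 22 kept, 1 passed as higher and 0 as lower, beside 0.655% and 1.27% of all genes, and the median difference was 0.22. On average 18 were higher (81.8%, beside 57.6% of all genes) and 4 lower. At an unadjusted p of 0.05 in limma, 9 were higher and 2 lower, beside 11.4% and 7.31% of all genes. The 2 were Celsr2, which places cilia in ependymal cells, at -0.25 ± 0.10, and Nfib, a transcription factor gene, at -0.23 ± 0.09, both with every ZnR mouse below every control mouse. Many of them, such as Aqp4, Gja1 and S100b, are shared with astrocytes. The one that rose was Six3, a transcription factor gene that striatal neurons also express, by 0.82 ± 0.15, and it was not past the threshold with any 1 mouse left out. Rarres2, the chemerin gene, which ependyma expresses strongly, measured 5.47, 6.23 and 6.30 in control mice and 6.96 to 7.09 in ZnR mice. Its difference of 1.02 ± 0.21 did not pass, and control mouse 1 was again the lowest. The arrays read whole tissue and do not show in which cells the motile cilia genes were expressed. Summed over the list on the linear scale, the markers ranged from 36215 to 38857 in control mice and from 39133 to 42091 in ZnR mice. Such a sum weighs most the genes of highest signal, here Clu, Gja1 and Nnat, with control means of 13.1, 12.6 and 12.5. The same holds for the summed levels of the other lists.

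Choroid plexus epithelium is multiciliated too, and 10 of its 24 markers on the array were kept. Of these 2 rose: Clic6, an ion channel protein, by 1.53 ± 0.26, and Lbp, a lipopolysaccharide-binding protein, by 0.84 ± 0.11. The other 8 did not pass, and the list's median was 0.46. Of all genes, 0.655% were past the threshold as higher. All 10 were higher on average, beside 57.6% of all genes, and 5 of them without overlap, beside 16.5%. The 5 included Otx2, at 1.01 ± 0.31, and Calml4, at 0.92 ± 0.17. For Calml4 no control mouse was above the floor, so that its separation follows from the floor. At an unadjusted p of 0.05 in limma, 4 were higher, beside 11.4% of all genes, and 0 lower. Ttr, the transthyretin gene that dominates choroid plexus RNA, measured 3.64, 4.52 and 3.15 in control mice and 4.14, 3.77 and 5.36 in ZnR mice, with overlap and values around the floor. Folr1, Aqp1, Kcne2, Cldn2 and Kcnj13, which define this epithelium, were below the floor in every mouse, the highest at 3.76. The summed level ranged from 354 to 642 in control mice and from 657 to 805 in ZnR mice.

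Markers of tissue beside the ventricle and of neighbouring regions were compared in the same way. For this list and those that follow, the shares over all genes were 0.655% past the threshold as higher and 1.27% as lower. Of 17 markers of subventricular zone progenitors and young neurons, 0 passed, 12 were higher at an unadjusted p of 0.05 in limma, beside 11.4% of all genes, and the median difference was 0.55. The number past the threshold was 5 with array weights, 6 with a trended variance prior and 2 with the low-18S arrays as a block. Their summed level ranged from 6893 to 8522 in control mice and from 9075 to 9918 in ZnR mice. Cdk1, a kinase of dividing cells, measured 3.74, 4.14 and 3.79 in control mice and 4.63, 4.70 and 4.41 in ZnR mice. Of 10 septal markers 3 rose, Ecel1 by 1.18 ± 0.18, Isl1 by 1.13 ± 0.14 and Ebf1 by 0.69 ± 0.08. Their median was 0.84, with a summed level of 3514 to 6871 in control mice and 7544 to 8641 in ZnR mice.

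Of 12 striatal medium spiny neuron markers 2 rose, Drd2 by 0.89 ± 0.16 and Gpr6 by 0.58 ± 0.08. Their median was 0.56, with a summed level of 22721 to 28781 in control mice and 32059 to 36921 in ZnR mice. Of 8 cortical excitatory neuron markers 5 fell, led by Nrn1 with -1.27 ± 0.10 and Slc17a7 with -1.08 ± 0.12. Their median was -0.83, with a summed level of 7297 to 7941 in control mice and 3584 to 4212 in ZnR mice. Astrocyte markers had a median of 0.13, with Gfap, their filament gene, rising by 0.79 ± 0.10 and the other 10 not passing, and a summed level of 33771 to 37899 in control mice and 37901 to 39136 in ZnR mice. Of 7 leptomeningeal fibroblast markers 0 passed, 3 were higher at an unadjusted p of 0.05 in limma, beside 11.4% of all genes, and the median was 0.63, with overlap in all. Their summed level ranged from 421 to 747 in control mice and from 660 to 1341 in ZnR mice. Of 14 testis genes 0 passed the floor. With a mouse left out, the number past the threshold was 0 to 2 for septum, 0 for striatum, 0 to 3 for cortical neurons, 0 to 1 for choroid plexus, and 0 to 1 for astrocytes. Without the low-18S pair it was 0 in each of these lists. The part of these cell types and regions in the motile cilia result was not tested.

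**Figure D5:**
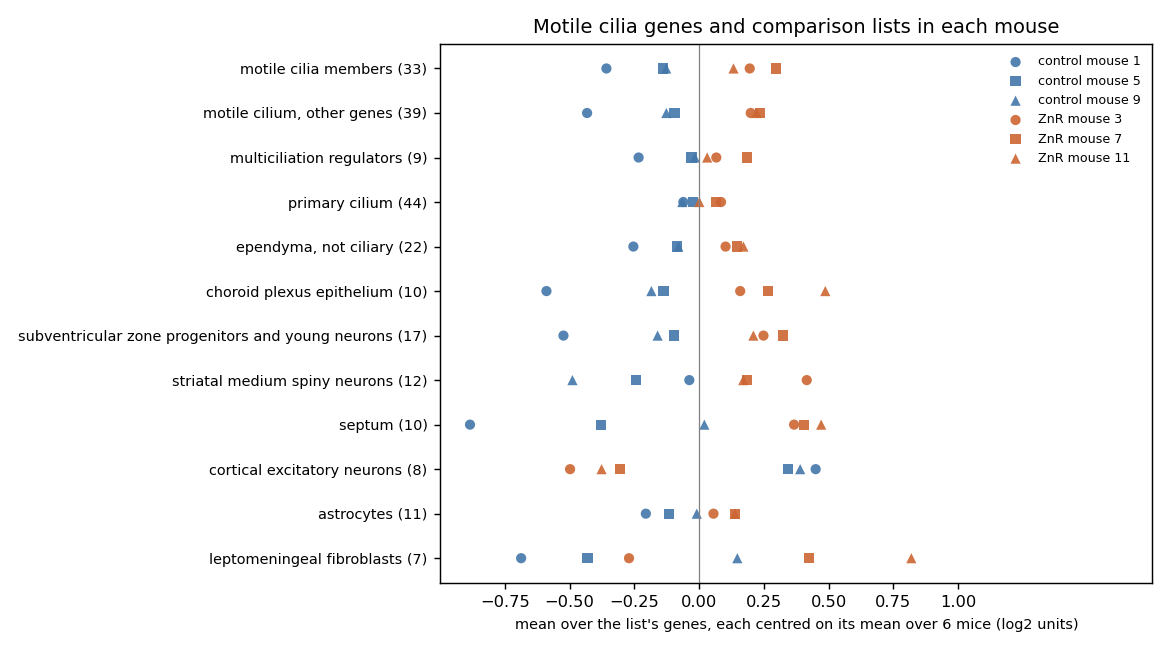
Mean over the kept genes of each list, each gene centred on its mean over the 6 mice (x axis, log2 units), for the motile cilia genes and the comparison lists (y axis, number of genes in brackets), 1 point a mouse with control mice in blue and ZnR mice in orange. The 3 ZnR mice lie right of the 3 control mice in every list but 2: cortical excitatory neurons, where they lie left, and leptomeningeal fibroblasts, where they overlap.

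The order of the control mice was not the same in every list. Control mouse 1 was the lowest control in 19 of 33 motile cilia genes (57.6%), in 26 of 39 other motile cilium genes (66.7%) and in 16 of 17 subventricular zone markers (94.1%), beside 37.7% of all genes. It was the lowest in 9 of 11 astrocyte markers (81.8%), in 14 of 44 primary cilium genes (31.8%) and in 1 of 12 striatal markers (8.33%). Centred list means of control mice 1, 5 and 9 were -0.36, -0.14 and -0.13 for the motile cilia genes, -0.88, -0.38 and 0.02 for septum and -0.04, -0.24 and -0.49 for striatum.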

How the data were processed

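RNA of medial prefrontal cortex from 6 mice, 500 ng each, was labelled by 3′ IVT and hybridised to Mouse430_2 arrays (Affymetrix), as the labels' protocols state. The values are log2 expression per probe set as the authors deposited them, 1 column a mouse, from 0.99 to 14.7. R 2.15.1 and GCRMA 2.28.0 are named per the submitters' processing notes. GCRMA corrects background by probe sequence and equalises arrays, which hides any change of total RNA and compresses low values.

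Gene symbols came from the platform annotation, and only those with 1 symbol were named. Of 45101 probe sets, 64 array controls were left out, and 25381 (56.4%) passed the floor. The diets were compared by lmFit and eBayes of limma 3.58.1 in R 4.3.3, 2-sided, with no covariate, Benjamini-Hochberg adjustment over all kept probe sets and a threshold of 0.05. Gene lists used 1 probe set a gene, that with the highest mean. The fit was tested on simulated data.

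Genes given in full were those past the threshold, those the naming rule spells out, and for each name prefix the kept probe set with the highest mean and that with the smallest p; others were added to complete each role. Of each comparison list, genes were named from those past the threshold and the 4 with the smallest p. Rfx3, Fam183b, Myb, Ttr, Celsr2, Nfib, Ccdc65, Lrrc6 and genes below the floor were named after their values were seen. The genes, lists, motifs and tests were chosen with earlier results of these data known. Alternatives covered array weights, variance prior, normalization, floor, leaving out each mouse, the low-18S arrays as a block or left out, 1 probe set a gene and current symbols. Python 3.11.15, pandas 2.3.3, matplotlib 3.10.9 and statmod 1.5.0 were also used.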

Additional observations from a re-analysis of the deposited data

How the results depend on the processing

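No paired analysis was possible because control and ZnR mice share no mouse number. Over all 18 alternatives 0 motile cilia probe sets were past the threshold as lower, with at most 1 lower at an unadjusted p of 0.05 in limma. The number past it as higher, 6 with all mice, was 13 with array weights, 0 to 1 with a mouse left out, and 0 without the low-18S pair, a setting chosen after seeing the data; the other alternatives gave 4 to 9. The median difference over the members, 0.25, was 0.12 with no floor, 0.19 with a floor of 5 and 0.32 with 1 probe set a gene, and 0.24 to 0.29 with a mouse left out. Among the other motile cilium genes the number past the threshold as higher, 4 with all mice, was 10 with array weights, 7 when the low-18S arrays formed a block, 7 with a trended variance prior, 2 with a robust prior, 0 with any mouse left out and 0 without the low-18S pair.

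Of the 42 probe sets, 36 were higher on average with all mice, 31 to 37 with a mouse left out and 33 without the low-18S pair. With all mice, 57.6% of all genes were higher on average, counted with 1 probe set a gene. Of the 18 given in full, 4 changed sign. Dnal1 was -0.035 with array weights and -0.010 when the low-18S pair was left out, and leaving out 1 mouse gave -0.00083 (control mouse 1) to 0.080 (control mouse 5). One Ccdc39 probe set was -0.11 without the low-18S pair and ran from -0.094 (control mouse 1 left out) to 0.15 (control mouse 9 left out). The other ran from -0.068 (ZnR mouse 7 left out) to 0.13 (ZnR mouse 3 left out), with -0.0062 on leaving out control mouse 5 and -0.025 on leaving out ZnR mouse 11. Rsph9 ran from -0.14 (ZnR mouse 7 left out) to 0.26 (ZnR mouse 11 left out), with -0.035 on leaving out control mouse 5. Of 283 values of these 18 probe sets, chosen in part because they were past the threshold or had the smallest p, 221 kept their direction and side of the threshold, 42 lost the call, 10 gained one and 10 changed sign. Of 384 counts of genes past the threshold in the comparison lists, 78 moved by over 1.5 times or to or from 0. The cause of these changes was not tested. In 11 kept probe sets at least 1 control mouse was not above the floor, and how low signal affects their differences was not tested.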
